A study of Mus musculus with 6 samples.

Results

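Genes of motor neurons and of acetylcholine transmission were followed in RNA-seq counts from mouse samples labelled sciatic nerve. They comprised 9 rows of the 54532 genes listed, chosen by name. They were Chat, Slc18a3, Slc5a7 and Ache, which make, load, recycle and degrade the transmitter, Mnx1, Lhx3 and Lhx4, transcription factors of developing motor neurons, and Chodl and Uts2b, genes used as labels of mature motor neurons. All 9 passed the filter on low counts, as did 17099 genes of the whole table. The samples were labelled sciatic nerve at postnatal day 3 (P3), and also nerve cell. They came from 3 control mice (WT) and 3 Dok6 mutant mice, with 1 library per mouse. Dok6 encodes an adaptor protein of neurotrophin receptor signaling. According to the study's methods the mutants carried a deletion made by EIIA-cre, a Cre active in the early embryo, on floxed Dok6, so that the gene was disrupted in all tissues and not in neurons alone. The study's supplement describes the controls as littermates, without giving the litter of each mouse. The targeted gene was 17.8, 11.9 and 17.5 counts per M library counts (CPM) in the control libraries and 7.26, 5.78 and 7.15 in the Dok6 mutant libraries, so the genotype labels and the Dok6 level went the same way in all 6 libraries.

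Motor neurons release acetylcholine at the neuromuscular junction. Choline acetyltransferase (Chat) joins choline and an acetyl group in the cytosol of the terminal, the vesicular acetylcholine transporter (Slc18a3) fills synaptic vesicles with the product, acetylcholinesterase (Ache) splits it in the cleft, and the high-affinity choline transporter (Slc5a7) takes the choline back up. The cell bodies of the motor neurons of the sciatic nerve lie in the ventral spinal cord and only their axons run in the nerve. Mnx1 and Lhx3 take part in giving these neurons their identity in the embryo, and Lhx4 acts beside Lhx3.

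Slc18a3 lies inside Chat, an arrangement known as the cholinergic gene locus. In the GRCm38 annotation (GENCODE M21), Chat spans bases 32408203 to 32465989 of chromosome 14 on the minus strand and has 16 exons in its main transcript. Slc18a3 spans bases 32462438 to 32464850 on the same strand, has 1 exon of 2413 bases, and sits whole within intron 1 of the main Chat transcript, which measures 4893 bases. No annotated Chat exon overlaps it, so reads from spliced Chat RNA do not fall on Slc18a3, whereas reads from unspliced Chat RNA cannot be told apart from Slc18a3, and the Slc18a3 counts are uncertain to that extent.

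**Figure D1:**
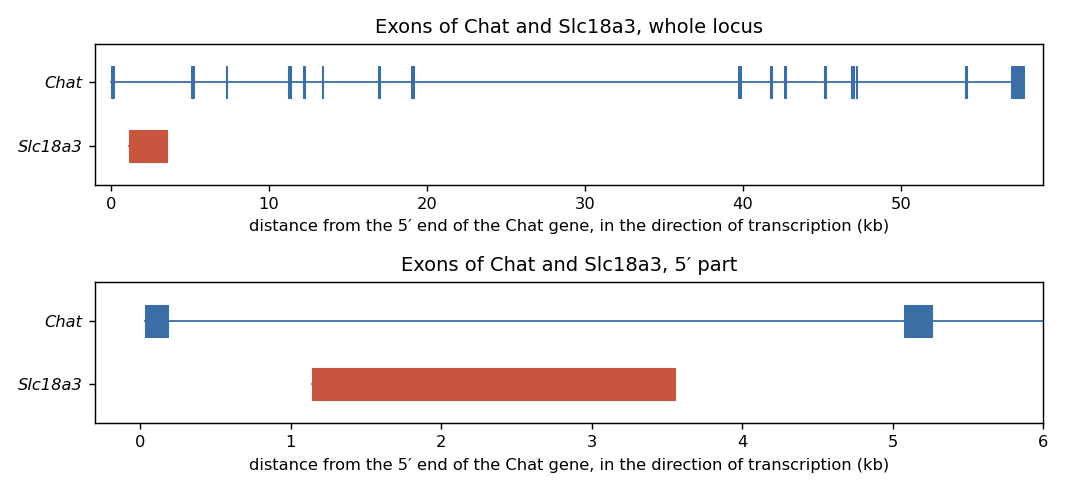
Exons (boxes) of the main Chat transcript and of Slc18a3, plotted by distance in kb from the 5′ end of the Chat gene, for the whole locus (top) and its 5′ part (bottom). The single exon of Slc18a3 lies between the exons that bound intron 1 of Chat.

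Windows of 300 bases around the annotated starts of these genes, most of each lying upstream, were read from RefSeq on GRCm38.p6. All 9 genes had a window and Lhx3 had 2, which made 10. The pair at the cholinergic locus is printed because Slc18a3 was the gene of the 9 that fell, and the upstream Lhx3 window because it alone held a repressor element 1 (RE1) match. RE1 is the site of REST, a repressor of neuronal genes in other cells. Capitals mark the letters searched on both strands, which were the RE1 consensus with any base allowed at the pair of positions between its parts, the GC box GGGCGG, the TATA box TATAAA and the E-box CACGTG. No match overlapped another in the sequences shown. Each is printed 5′ to 3′ on the minus strand, from chr14:32464801-32465100 for Slc18a3, chr14:32465860-32466159 for Chat and chr2:26208200-26208499 for Lhx3.
Slc18a3: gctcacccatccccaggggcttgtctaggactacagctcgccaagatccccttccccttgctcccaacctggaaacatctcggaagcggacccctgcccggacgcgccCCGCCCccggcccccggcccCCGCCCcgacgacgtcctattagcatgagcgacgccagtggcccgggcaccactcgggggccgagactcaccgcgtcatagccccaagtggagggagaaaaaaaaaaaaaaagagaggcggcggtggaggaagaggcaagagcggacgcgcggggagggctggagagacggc
Chat: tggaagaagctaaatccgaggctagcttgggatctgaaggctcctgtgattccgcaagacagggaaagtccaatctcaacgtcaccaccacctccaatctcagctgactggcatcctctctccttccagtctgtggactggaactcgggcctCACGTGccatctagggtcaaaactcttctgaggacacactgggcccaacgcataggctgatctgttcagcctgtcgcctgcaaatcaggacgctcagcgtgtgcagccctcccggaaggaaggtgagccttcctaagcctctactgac
Lhx3: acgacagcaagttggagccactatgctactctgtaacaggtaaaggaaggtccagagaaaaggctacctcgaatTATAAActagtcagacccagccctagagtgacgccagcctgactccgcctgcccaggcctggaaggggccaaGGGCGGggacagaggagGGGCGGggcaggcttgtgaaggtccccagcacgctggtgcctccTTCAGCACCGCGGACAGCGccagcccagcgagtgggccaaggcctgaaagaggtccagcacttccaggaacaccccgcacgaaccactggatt
The Slc18a3 window held 2 GC boxes, read on the opposite strand, and none of the other letters, and its GC content was 67.0%. The Chat window, at 55.7% GC, held 1 E-box and none of the others. The Lhx3 window held 1 RE1 match, beginning 43 bases before the start, together with 2 GC boxes and 1 TATA box. Among all 32851 windows, 3 held the RE1 consensus (0.00913%), 35.7% a GC box, 13.6% TATAAA and 7.15% CACGTG. GC boxes were found in 6 of the 10 windows, which belonged to Ache, Lhx3, Lhx4, Mnx1 and Slc18a3. TATAAA was found in 3 (Lhx3, Slc5a7 and Uts2b) and CACGTG in 2 (Ache and Chat). A match describes letters in these windows and is not a measured binding site.

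The remaining genes were dispersed over the genome. Slc5a7 lies on the minus strand of chromosome 17 (bases 54273590 to 54299034), Mnx1 on the minus strand of chromosome 5 (29473034 to 29478470), Lhx3 on the minus strand of chromosome 2 (26200212 to 26208289) and Lhx4 on the minus strand of chromosome 1 (155698031 to 155751684). Ache lies on the plus strand of chromosome 5 (137287519 to 137294466), Chodl on the plus strand of chromosome 16 (78930948 to 78951733) and Uts2b on the minus strand of the same chromosome (27353322 to 27370239). Exons of Ache overlap those of the opposite-strand gene Gm42456, and exons of Lhx3 those of Gm27196. Whether strand was used in counting is not given in the sources used here, so the counts of Ache and Lhx3 are uncertain to that extent. None of the 9 had a near-identical transcript of another gene (95% identity over at least 200 bases).

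The tissue label was checked against marker genes before the comparison. The 6 libraries held between 17699904 and 18678170 counts. All 13 spinal interneuron markers, transcription factors of neurons inside the cord, were measured and passed the filter, and their summed level was 400 to 450 CPM in control and 271 to 381 CPM in Dok6 mutant libraries. The 8 markers of central glia summed to 2060 to 2830 CPM and 1860 to 3610 CPM. By contrast, Egr2, a transcription factor of myelinating Schwann cells, was at 1.2, 0.975 and 0.40 CPM in the control libraries and at 2.02, 18.9 and 2.70 CPM in the Dok6 mutant libraries. The 7 Schwann cell markers together spanned 120 to 785 CPM in control and 224 to 1910 CPM in mutant libraries, with the highest sum in Dok6 mutant 2. Sensory neuron markers summed to 102 to 120 CPM against 239 to 621 CPM, skeletal muscle markers to 18.7 to 28.6 CPM against 129 to 683 CPM, and red cell markers to 418 to 714 CPM against 72.5 to 279 CPM. Most of the sensory sum in the controls was Pou4f1 and Tlx3, at means of 69.7 and 27.5 CPM (80.6 and 26.9 CPM in the mutants). The other sensory neuron markers were each at most 6.25 CPM in a control library. All 6 libraries labelled sciatic nerve thus held RNA of markers of central neurons and glia, and the sums of spinal interneuron, sensory neuron, muscle and red cell markers did not overlap between the genotypes. The part of these differences in the results below was not tested. In bulk RNA of this kind, fewer cells or axons of a type and less RNA per cell cannot be told apart.

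**Figure D2:**
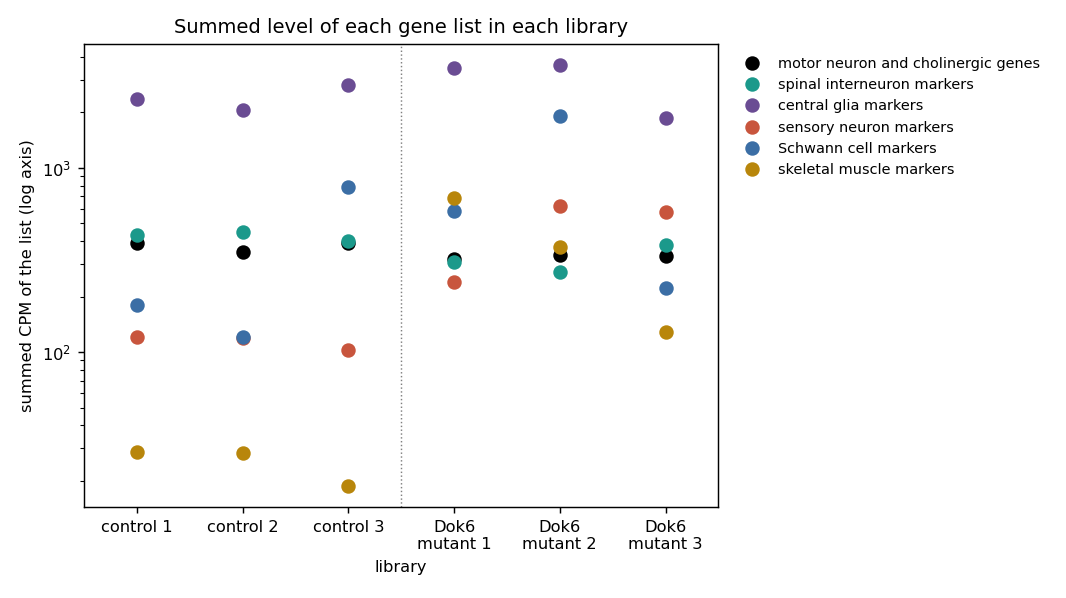
Summed CPM (log axis) of the 9 motor neuron and cholinergic genes and of 5 lists of cell type markers in each of the 6 libraries, with the genotypes on either side of the dotted line. The 9 genes sum to 351 to 391 CPM in control and 319 to 336 CPM in Dok6 mutant libraries, while skeletal muscle markers sum to at most 28.6 CPM in control and at least 129 CPM in mutant libraries. Most of the sum of the 9 genes is Ache, at 198 to 209 CPM in control and 169 to 196 CPM in mutant libraries.

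Comparison of the genotypes asked whether the genes of motor neurons and of acetylcholine transmission differed when Dok6 was disrupted. Slc18a3 fell in the Dok6 mutant mice, to 40.1 ± 3.97 CPM from 55.6 ± 6.84 CPM (mean ± SD, n = 3 each). The other 8 genes did not pass the test, and none of the 9 reached the study's fold change threshold of a log2 fold change beyond 2. Thus 1 of 9 genes (11.1%) was past an adjusted p of 0.05 by edgeR's quasi-likelihood test, where 14.6% of all genes tested were past it in either direction and 6.01% were lower in the mutants. At the threshold with the fold change, 1.19% of all genes tested were past it. Before adjustment 2 of the 9, Slc18a3 and Lhx4, had a p under 0.05. The fitted change was below 0 for 7 of 9 genes, compared with 48.6% of all genes tested, and the median log2 fold change was -0.27 beside 0.01 for all genes. Slc18a3 and Ache were lower in every mutant than in every control library, and 18.7% of all genes tested showed such a separation downward.

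**Figure D3:**
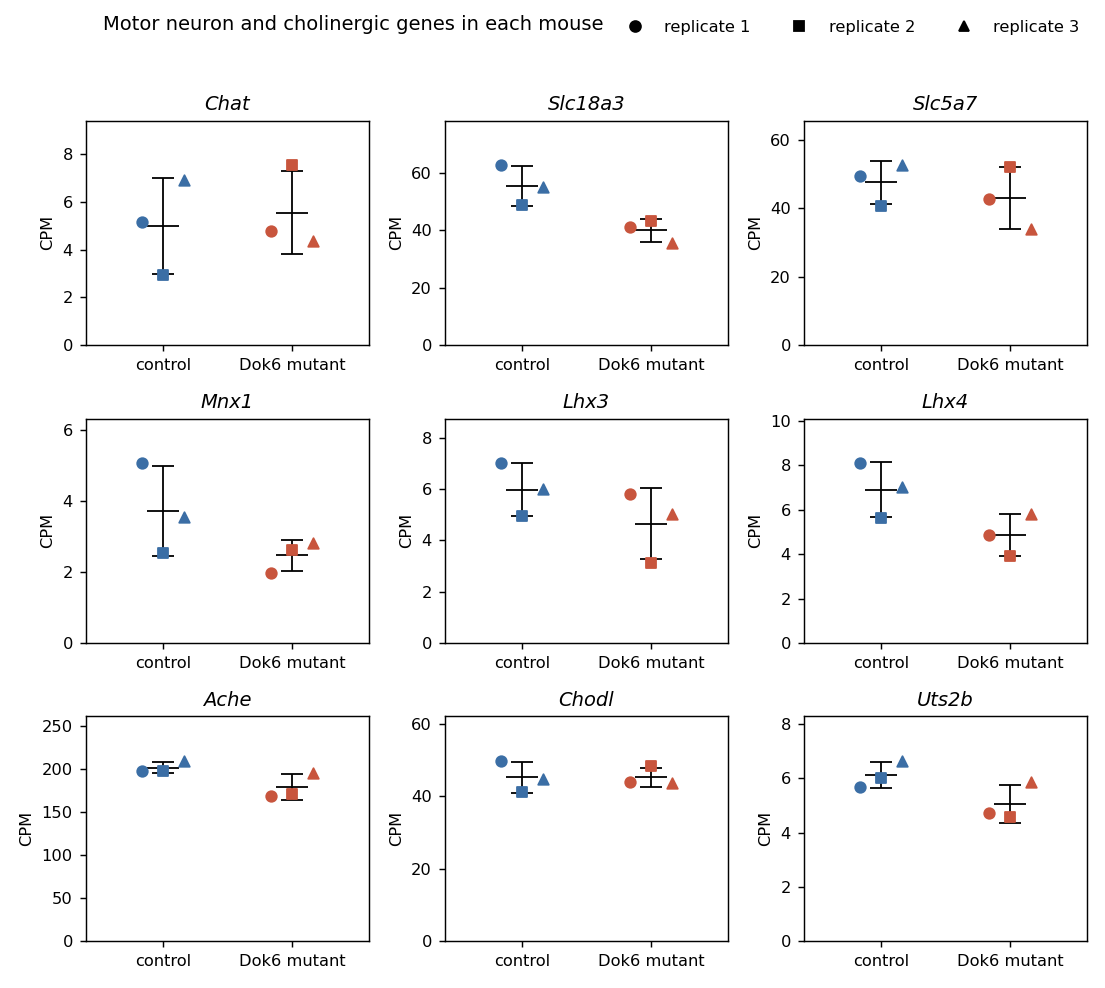
CPM of each of the 9 genes in the 3 control (blue) and 3 Dok6 mutant (red) mice, with the mean and SD of each genotype as black bars and each axis starting at 0. Only for Slc18a3 and Ache do the mutant points all lie below the control points.

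Chat, the enzyme that defines a neuron as cholinergic, was detected at a low level in every library. It was 5.16, 2.92 and 6.92 CPM in control mice 1 to 3 and 4.77, 7.53 and 4.35 CPM in Dok6 mutant mice 1 to 3. Control 2 was the lowest and mutant 2 the highest, and the genotypes overlapped. The log2 fold change was 0.15 ± 0.33 (SE), with an edgeR adjusted p of 0.788 and a 95% interval of -0.62 to 0.91. Leaving out control 2 or mutant 2 turned the estimate to -0.13. The control libraries differed among themselves by a coefficient of variation of 40%, while counting error alone gives 10.7%, so the spread of Chat exceeded what its 51 to 138 counts would give.

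Slc18a3, the transporter that loads the vesicles, was measured with more counts than Chat in every library. Its level was 62.7, 49.0 and 55.0 CPM in the control mice and 41.2, 43.4 and 35.7 CPM in the Dok6 mutant mice. The lowest control library was above the highest mutant library. The log2 fold change was -0.47 ± 0.12, a level 0.722 times that of the control (95% interval 0.598 to 0.873), with an edgeR adjusted p of 0.0358. Its counts ranged from 674 to 1092, and the coefficients of variation of 12.3% in control and 9.90% in mutant libraries stood above the 3.21% and 3.64% of counting error. The call did not hold when any 1 mouse was left out: over the 6 such fits the log2 fold change ran from -0.55 to -0.37 and the adjusted p from 0.0639 to 0.0891.

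Slc5a7, whose product returns choline to the terminal, was 49.6, 40.7 and 52.6 CPM in control and 42.8, 52.1 and 34.1 CPM in Dok6 mutant mice. Mutants 1 and 2 lay within the control range and mutant 3 was the lowest of all. The log2 fold change of -0.15 ± 0.16 did not pass the test (edgeR adjusted p = 0.557, 95% interval -0.52 to 0.22).

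Ache, which ends the signal in the cleft, had the most counts of the 9 genes. It was 198, 198 and 209 CPM in control and 169, 171 and 196 CPM in Dok6 mutant mice. The controls were close to each other, with a coefficient of variation of 3.07%, and mutant 3 came near the lower controls without reaching them. The log2 fold change was -0.18 ± 0.08, at an edgeR adjusted p of 0.174, and its 95% interval of -0.36 to 0.01 leaves room for a decrease to 0.777 times the control level at most. The exact two-sided permutation test over the 6 mice gave p = 0.1, the smallest that 3 against 3 can give. Ache is also made by muscle and by other neurons. The muscle marker sums were higher in the mutants (above). The sums of spinal interneuron markers (above) and of transmitter markers of other neurons (925 to 1130 CPM in control, 844 to 911 CPM in mutant libraries) were lower, as Ache was. The part of muscle and other neurons in the Ache level was not tested.

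The 3 transcription factors were measured at low counts, Mnx1 with 38 to 88 per library, Lhx3 with 57 to 122 and Lhx4 with 72 to 141, so counting error alone amounts to a coefficient of variation of 9.10% to 14.7%. Mnx1, a homeobox gene of motor neurons, was 5.05, 2.52 and 3.55 CPM in control and 1.97, 2.62 and 2.81 CPM in Dok6 mutant mice. Control 2 fell among the mutants, and the log2 fold change of -0.59 ± 0.30, the lowest of the 9, did not pass the test (edgeR adjusted p = 0.211). Lhx3, a LIM homeobox gene shared by motor neurons and V2a interneurons in the embryo, was 7.0, 4.93 and 6.0 CPM in control and 5.81, 3.11 and 5.03 CPM in mutant mice. Mutant 2 was below all others while mutants 1 and 3 lay within the control range, and the log2 fold change was -0.36 ± 0.26 (edgeR adjusted p = 0.364). Lhx4, its close relative, was 8.09, 5.62 and 7.03 CPM in control and 4.88, 3.93 and 5.83 CPM in mutant mice. Here mutant 3 exceeded control 2. The log2 fold change of -0.50 ± 0.22 had an unadjusted p of 0.0477 and an edgeR adjusted p of 0.145. The 95% intervals of the log2 fold change were -1.28 to 0.10 for Mnx1, -0.95 to 0.23 for Lhx3 and -1.0 to -0.01 for Lhx4, before adjustment for the number of genes, so decreases to between 0.413 and 0.516 times the control level lay within these intervals.

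Of the labels of mature motor neurons, Chodl, a membrane protein found in fast motor neurons, showed the smallest difference of the 9. It was 49.6, 41.2 and 44.8 CPM in control and 43.8, 48.3 and 43.7 CPM in Dok6 mutant mice. The genotypes overlapped and their means were 45.2 CPM each. The log2 fold change was 0.00 ± 0.10 with a 95% interval of -0.23 to 0.23, which is 0.854 to 1.17 times the control level (edgeR adjusted p = 0.993). Uts2b, which encodes a peptide related to urotensin, was 5.68, 6.02 and 6.63 CPM in control and 4.72, 4.58 and 5.88 CPM in mutant mice. Mutant 3 exceeded control 1, and the log2 fold change of -0.27 ± 0.18 did not pass the test (edgeR adjusted p = 0.331). None of the 8 genes other than Slc18a3 passed in any of the 6 fits that left out a mouse or in the 6 that used another tool, scaling or filter.

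Levels can be set between genes only per kb of gene length, and on that scale (CPM per kb, the mean of 6 mice) Ache was highest at 41.1, followed by Slc18a3 at 19.8, Chodl at 8.23, Slc5a7 at 8.03 and Uts2b at 6.69. Lhx3 at 1.75, Mnx1 at 1.37, Chat at 1.12 and Lhx4 at 1.03 formed a lower set. The steps from Ache to Slc18a3, from Slc18a3 to Chodl and from Uts2b to Lhx3 were larger than the range over the mice. Other neighbours overlapped in their ranges over the mice. Within single libraries, Chodl was above Uts2b in 6 of 6 and above Slc5a7 in 4 of 6, and Lhx3 and Mnx1 were each above Lhx4 in 6 of 6. Chat was above Lhx4 in 3 of 6 libraries and below Mnx1 in 4 of 6, so its place in the lowest set was not settled. The enzyme of synthesis thus stood in the lowest set, with values of 0.622 to 1.6, and the vesicular transporter of the same locus in the highest, with values of 14.8 to 26. The lengths are those in the deposited table, 835 bases for Uts2b to 5740 bases for Lhx4, and the level per kb depends on them.

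**Figure D4:**
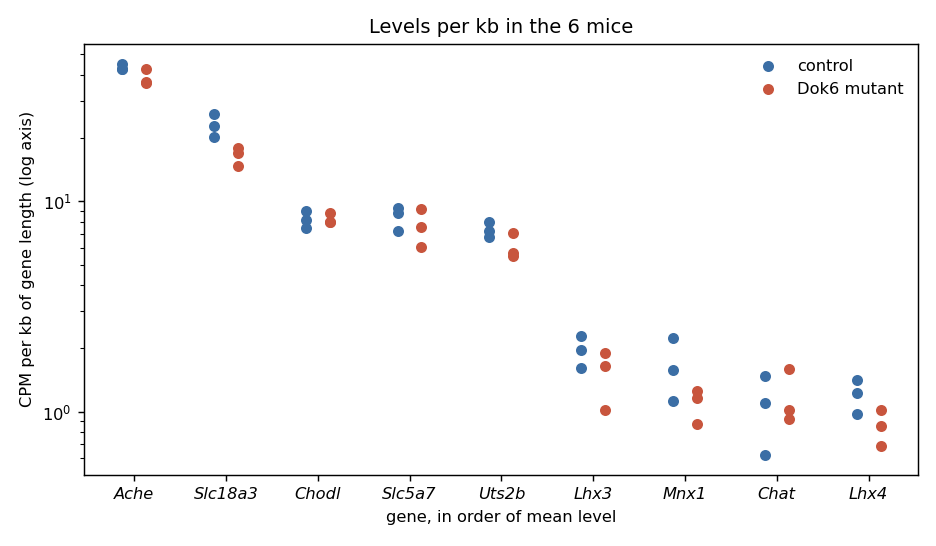
CPM per kb of gene length (log axis) of the 9 genes in the order of their mean over 6 mice, with control mice in blue and Dok6 mutant mice in red. Ache and Slc18a3 stand above the rest, and Lhx3, Mnx1, Chat and Lhx4 form the lowest set.

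The mice of a genotype differed in a way that several of the 9 genes shared. Control 2 was the lowest control for 8 of the 9 genes, all but Uts2b, whereas it was the lowest control for 29.4% of all genes tested. For Ache this was a near tie, since controls 1 and 2 were both at 198 CPM. Control 1 was the highest control for 5 genes and control 3 for 4. Among the mutants no mouse stood out, with mutants 1, 2 and 3 lowest for 2, 3 and 4 genes. Chat, Slc18a3, Slc5a7 and Chodl were highest in mutant 2 among the mutants, the library with the highest Schwann cell marker sum, and Mnx1, Lhx4, Ache and Uts2b were highest in mutant 3.

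Ratios of counts within a library do not depend on its scaling, and 5 of them were computed for Slc18a3, chosen after the values were seen. The ratio of Slc18a3 to Chat was 12.1, 16.8 and 7.95 in control and 8.64, 5.77 and 8.22 in Dok6 mutant mice. The genotypes overlapped, and the exact two-sided permutation test of the log2 ratio gave p = 0.3. The ratio to Slc5a7 was 1.26, 1.20 and 1.05 against 0.962, 0.834 and 1.05, and the ratio to Ache was 0.316, 0.247 and 0.263 against 0.244, 0.254 and 0.182, each with an exact permutation p of 0.2. The remaining ratios, to Mnx1 and to Slc32a1, the vesicular transporter of inhibitory neurons, gave exact permutation p-values of 0.7 and 0.6. Adjusted over the 5 ratios the p-values were 0.5 to 0.7. With 3 against 3 mice p cannot go below 0.1, so this test could not have passed 0.05 and does not say whether Slc18a3 changed relative to the other genes. The mean log2 differences of its ratios, mutant minus control, were -0.66 to Chat, -0.31 to Slc5a7, -0.29 to Ache, 0.08 to Mnx1 and -0.15 to Slc32a1.

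The genes whose pattern over the 6 libraries was most like that of Ache were Trim3, Nrcam, Rbfox3, Fscn1 and Vps36, with a root mean square difference of centred log2 CPM of 0.0146 for Trim3 to 0.0282 for Vps36 among 15675 genes compared. Trim3 was 131, 130 and 137 CPM in control and 108, 112 and 128 CPM in Dok6 mutant mice, so it had the same order of libraries at the ends, control 3 highest and mutant 1 lowest. Among those nearest to Chat were Gm6970, Kcnh8, 4732491K20Rik and Aifm3, at 0.0943 to 0.152. Kcnh8 was 4.88, 3.38 and 7.38 CPM in control and 5.34, 7.85 and 5.25 CPM in mutant mice, with control 2 lowest and mutant 2 highest as for Chat. These lists describe 6 libraries that share their scaling, and none of the other 8 genes was among them.

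The wider pathway was read from 5 lists of related genes. Of 62 genes listed 50 were tested, 4 rose and none fell (8.0%), where 8.62% of all genes tested rose, and their median log2 fold change was 0.15. None of the 15 acetylcholine receptor genes tested passed, of 21 listed. The most abundant were Chrna4, at 130, 117 and 123 CPM in control and 102, 83.8 and 119 CPM in Dok6 mutant mice (log2 fold change -0.29, edgeR adjusted p = 0.138), and Chrnb2, at 97.8, 88.9 and 83.5 against 78.2, 77.0 and 86.4 CPM (-0.16, edgeR adjusted p = 0.244). These are the subunits of the main nicotinic receptor of the brain. The subunits of the muscle receptor that were under the filter, named after their values were seen, had few counts. Chrnd had 0, 0 and 0 in control and 1, 11 and 4 in mutant mice, Chrne 1, 0 and 3 against 3, 5 and 0, and Chrng 1, 1 and 1 against 2, 20 and 4.

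Bche, butyrylcholinesterase, the second enzyme that splits acetylcholine, rose in the Dok6 mutant mice, opposite to the fitted direction of Ache. It was 7.40, 7.05 and 8.52 CPM in control and 14.8, 16.5 and 13.9 CPM in mutant mice. The genotypes did not overlap, as for 38.2% of all genes tested in either direction, and the log2 fold change was 0.98 ± 0.15 (edgeR adjusted p = 0.00998). Bche is made by Schwann cells and other glia. Beside it 4 of the 7 Schwann cell markers rose, Cdh19, Egr2, Erbb3 and Pmp22, at log2 fold changes of 2.30, 3.18, 3.30 and 4.06, although the sums of the list overlapped between the genotypes (above). Without mutant 2 the log2 fold changes were 1.48, 1.45, 2.39 and 2.13. None of these 4 passed with voom of limma (adjusted p 0.0524 to 0.163) or without control 2 (0.0854 to 0.154). The part of the Schwann cell RNA in the Bche result was not tested. Without control 2 the log2 fold change was 0.92 at an adjusted p of 0.063.

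None of the 6 choline supply genes tested passed, and the most abundant were Acly, which makes cytosolic acetyl-CoA, at a log2 fold change of 0.21 (edgeR adjusted p = 0.139), and Chka, a choline kinase, at -0.22 (edgeR adjusted p = 0.290). For Acly the 3 mutant libraries, at 329 to 357 CPM, were above the 271 to 315 CPM of the controls, while Chka overlapped between the genotypes. Of all genes tested, 38.2% did not overlap in either direction. None of the 4 neuromuscular junction organizers tested passed. Agrn, the signal that motor axons release to muscle, was 719, 562 and 551 CPM in control and 623, 586 and 671 CPM in Dok6 mutant mice (0.04, edgeR adjusted p = 0.852), and its receptor Lrp4 had a log2 fold change of 0.09 (edgeR adjusted p = 0.825).

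**Figure D5:**
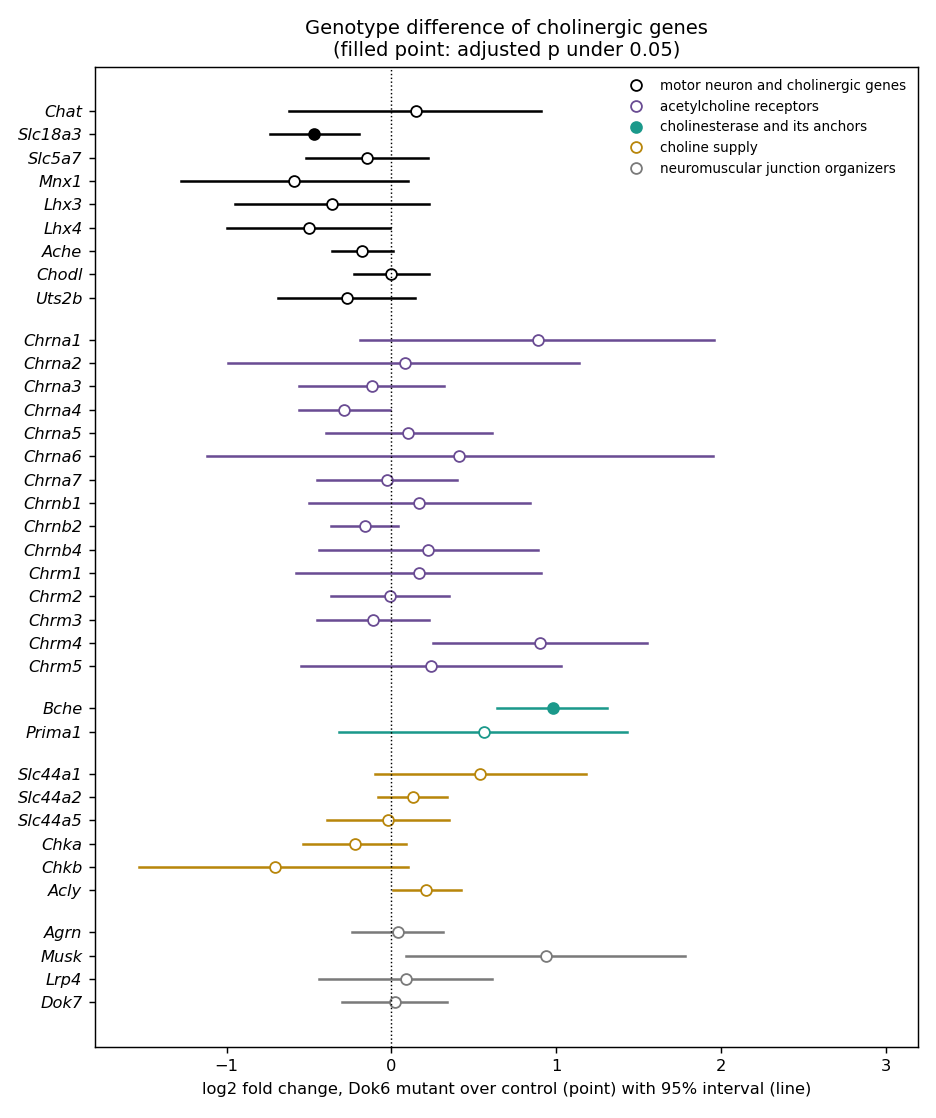
Log2 fold change of Dok6 mutant over control (point) with its 95% interval (line) for the 9 motor neuron and cholinergic genes and for the tested genes of 4 related lists, with filled points past an adjusted p of 0.05. Slc18a3 (-0.47) lies below 0 and Bche (0.98) above it, and all other points are open.

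Of 23 other motor neuron genes tested 3 rose, Isl2, Prph and Calca, where 8.62% of all genes tested rose, and none fell. All 3 are also genes of sensory neurons. Sv2a, a synaptic vesicle protein of most neurons, lay at the threshold with a log2 fold change of -0.37 (edgeR adjusted p = 0.0526), and it passed with DESeq2 (0.011), voom (0.0472), RLE scaling (0.0485) and no filter (0.0244). Isl1, a LIM homeobox gene of motor and sensory neurons, had a log2 fold change of 1.09 (edgeR adjusted p = 0.068). It passed with DESeq2 (0.00477), no filter (0.00853) and without mutant 1 (0.0223). With voom it did not pass (0.121), and without mutant 3 its log2 fold change was 0.73 (0.15). Sv2a and Isl1 were named after their values were seen. Isl2, a LIM homeobox gene, was 5.28, 2.58 and 2.80 CPM in control and 14.4, 43.1 and 26.7 CPM in Dok6 mutant mice (log2 fold change 2.98 ± 0.43, edgeR adjusted p = 0.00918). Prph, the intermediate filament peripherin, had a log2 fold change of 1.36 ± 0.30 (edgeR adjusted p = 0.0248), and Calca, the precursor of the peptide CGRP, of 1.28 ± 0.34 (edgeR adjusted p = 0.0396). For all 3 the genotypes did not overlap, as for 38.2% of all genes tested in either direction. Beside them 8 of the 10 sensory neuron markers tested rose, Scn10a among them, a sodium channel of nociceptors, at 3.10, 2.92 and 1.20 CPM in control and 46.0, 167 and 133 CPM in mutant mice. Pou4f1 and Tlx3, named after their values were seen, did not pass (log2 fold changes 0.21 and -0.03, edgeR adjusted p = 0.416 and 0.917). The part of the sensory neuron RNA in Isl2, Prph and Calca was not tested. Without control 2, none of the 3 passed, with adjusted p-values of 0.0628, 0.112 and 0.149. Prph also did not pass without control 3 (0.0651) or mutant 2 (0.0692). Calca did not pass without control 1 (0.103), mutant 2 (0.103) or mutant 3 (0.0526), nor with voom of limma (0.0579).

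Of the 13 markers of neurons inside the spinal cord, 1 fell, Pax2, a transcription factor of inhibitory neurons, a share near the 6.01% of all genes tested that fell. The fitted change was below 0 for 12 of the 13, where 48.6% of all genes tested were below 0, and their median log2 fold change was -0.46, with a range of -0.79 to 0.13. Pax2 was 128, 125 and 110 CPM in control and 73.6, 64.8 and 98.2 CPM in Dok6 mutant mice (log2 fold change -0.62 ± 0.15, edgeR adjusted p = 0.0287). It did not pass without control 1 (adjusted p = 0.0742), control 2 (0.115), mutant 1 (0.0871) or mutant 2 (0.0749). Of 9 transmitter markers of other neurons tested, 1 rose and 1 fell. Slc17a7, a vesicular glutamate transporter, rose from 0.63 ± 0.304 CPM to 7.15 ± 3.47 CPM (log2 fold change 3.49 ± 0.50, edgeR adjusted p = 0.00918), and without control 2 its adjusted p was 0.0628. Slc32a1 fell, from 172 ± 11.5 CPM to 139 ± 11.8 CPM (log2 fold change -0.32 ± 0.09, edgeR adjusted p = 0.0487). Slc32a1 lay close to the threshold and did not pass with voom (0.0535), upper-quartile scaling (0.0539) or a filter of 10 counts (0.0517), nor in any fit without 1 mouse (adjusted p 0.0533 to 0.162) except that without mutant 3 (0.0407). In contrast, all 8 central glia markers had a fitted change above 0, with a median of 0.36, and none passed. The part of the interneuron marker level in the Slc18a3 result was not tested.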

How the data were processed

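RNA labelled as P3 sciatic nerve was sequenced, 1 library per mouse, for 3 mice of each genotype. The authors deposited raw counts of reads per gene. The kit is NEBNext Ultra in the labels and its directional version in the methods. The submitters' processing notes name the build mm10. The aligner, the counter and the use of strand are not given in the sources used here. The lengths of the genes are those in the deposited table.

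Genes were filtered with filterByExpr by genotype, which left 17099 of 54532. Libraries were scaled by TMM and tested over all 6 libraries with the quasi-likelihood test of edgeR 4.0.16 in R 4.3.3, with Benjamini-Hochberg adjustment over all genes tested. Genes past an adjusted p of 0.05 are said to rise or fall. The methods of the study, with DESeq2, also asked for a log2 fold change above 2. CPM were scaled by the TMM factors, and SE and intervals were derived from the F statistic. The smallest level taken as detectable, 3 counts, was 0.161 to 0.169 CPM, which covers counting error only. The p-values set the genotype difference against the spread between 3 mice per genotype. In the quasi-likelihood fit this spread was moderated over all genes tested.

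The 9 genes and the lists were chosen with earlier results of these data known. From the lists, the genes eligible to be named were those past the threshold (at most the 4 with the largest change) or, where none passed, the 2 most abundant. Not all of these are named, and exceptions are marked in the text. Alternatives were DESeq2 1.42.0, voom of limma 3.58.1, scaling by RLE or by the upper quartile, omission of the filter, a filter of 10 counts in every library, a log2 fold change threshold of 1, a replicate block and leaving out each mouse. Some genes, in a marker list and among the patterns nearest to Chat, are not reported here. The edgeR procedure was also run on simulated counts with known changes, and the outcome of that run is not given here. Annotation was GENCODE M21, and BLAST 2.17.0 was used to look for near-identical transcripts.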

Additional observations from a re-analysis of the deposited data

How the results depend on the processing

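Slc18a3 stayed lower under every alternative and passed with another tool, scaling or filter (6 of 6 fits, adjusted p 0.00684 to 0.0379). It did not pass without any 1 mouse, at -0.55 to -0.37, so the count of the 9 genes that passed was then 0 in every fit (0 to 0). The genes past an adjusted p of 0.05 and a log2 fold change of 2 numbered 204, 364 with no filter, 76 with at least 10 counts in every library, and 686 with a threshold of 1. Leaving out 1 mouse gave 27 to 293 such genes, 68 to 2904 past the adjusted p alone (2502 with all mice), and 0 to 9 related genes (4 with all mice). The lowest of each of these counts came without control 2. Chat turned to -0.13 without control 2 or mutant 2, and ran up to 0.46. Chodl, at 0.0014, crossed 0 with DESeq2 (-0.01), RLE scaling (-0.01) and no filter (-0.0015), and over the fits without 1 mouse ran from -0.06 to 0.07. Over the same fits Mnx1 ran from -0.80 to -0.30, Lhx3 from -0.55 to -0.14 and Lhx4 from -0.65 to -0.37. Slc5a7 ran from -0.31 to -0.01, Ache from -0.25 to -0.14 and Uts2b from -0.39 to -0.20. Without control 1 Mnx1 was at -0.30 and Slc18a3 at -0.37, so Mnx1 was then not the lowest of the 9. The causes were not tested. Mnx1, Lhx3, Lhx4, Chat and Uts2b have at most 141 counts in a library. For Chat and Mnx1 in the controls the spread between mice (coefficients of variation of 40% and 34.3%) exceeded counting error (10.7% and 12.4%).

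Mice with the same replicate number did not deviate together (correlations -0.01, -0.17 and -0.24), so the numbers were not taken as pairs. With the replicate block 134 genes passed with the fold change and 562 without it, 0 of the 9 genes and 2 related genes, and Slc18a3 was at -0.47 with an adjusted p of 0.0818. The related genes that passed were Bche (edgeR adjusted p = 0.0447) and Isl2 (0.0403), while Prph (0.0777) and Calca (0.0838) did not. Of the other genes named as changed, Slc17a7 (0.0403) and Erbb3 (0.0449) passed with the block. Pax2 (0.069), Slc32a1 (0.101), Cdh19 (0.0744), Egr2 (0.0715) and Pmp22 (0.0607) did not.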
